A study of Mus musculus with 12 samples.

Results

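Voltage-gated potassium, sodium and calcium channels are the pore-forming proteins that open when the membrane potential changes, and 48 of the 24421 entries of the expression table belonged to them by symbol. The members were the entries named Kcna, Kcnb, Kcnc, Kcnd, Kcnh or Kcnq with a number (30 potassium channel genes), Scn with a number and the letter a (9 sodium channel genes), and Cacna1 with a letter from a to i (9 calcium channel genes). Scn2a1, an older symbol of the sodium channel gene Scn2a, and Cacna1s, the skeletal muscle calcium channel, fell outside this naming rule and are not counted. RNA was measured in GFP+ cells sorted by flow cytometry from the cerebellum of Aldh1l1-GFP mice on the C57/BL6J background, on postnatal day 1 (P1), day 7 (P7), day 14 (P14) or day 28 (P28), with 3 libraries a time point. All groups carried the same reporter and none was treated. In this reporter the Aldh1l1 promoter, which is active in astrocytes, drives GFP, so that each library held every cell that the GFP gate let through. How many animals gave the cells of 1 library is not given in the sources used here, and the p-values measure only the spread between these libraries. The deposited column names all carry P28, also those of the 9 libraries labelled P1, P7 or P14, so that the time points rest on the labels alone.

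Potassium channels of these families carry outward current: they set the resting potential, end the action potential and limit repetitive firing. Sodium channels start and carry the action potential along the axon, and calcium channels couple depolarisation to transmitter release, dendritic signalling and gene expression. These genes are best known in neurons, but immature glia, oligodendrocyte precursors and some astrocytes also carry voltage-gated currents, and the cerebellum holds several neuron types that fire at high rates.

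The libraries held from 6399499 to 14733985 reads in genes, and P7 replicate 2 was the shallowest. All values here are normalized counts, which are read counts divided by 1 size factor per library. A gene was tested with limma when at least 3 libraries reached a normalized count of 10, a change was called at a Benjamini-Hochberg adjusted p under 0.05 over all 15464 genes tested, and fold changes are on the log2(normalized count + 1) scale with their standard error (SE), later time point over earlier. A step is the change from one time point to the next, and P28 against P1 is given apart from the steps. Where no other tool is named, a gene called or not called, or passing no test, refers to limma, and edgeR or DESeq2 can differ. Of the 48 channel genes, 43 were tested. The 5 others were at or near the detection limit. Among them, Scn10a had no read in any of the 12 libraries, and the highest normalized counts of Scn4a, Kcna10 and Kcna7 were 2.86, 3.18 and 8.53. A count of 0 allows up to 3 reads (a 95% limit that covers counting error only), and among the tested genes 11 had at least 1 library at 0.

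Most channel genes changed with age. Over the 4 time points 32 of the 43 tested members differed (74.4%), beside 43.8% of all tested genes. From P1 to P7, 8 members rose and 4 fell, or 18.6% and 9.30%, against 3.47% and 4.24% of all genes. From P7 to P14, 12 members rose and 3 fell, or 27.9% and 6.98%, against 10.8% and 10.0%. The balance then turned: from P14 to P28 only 2 members rose and 15 fell, or 4.65% and 34.9%, against 5.68% and 8.76%. Between the ends of the series, P1 and P28, 11 members were higher and 14 lower at P28, or 25.6% and 32.6%, against 14.6% and 20.0%. The median log2 fold change of the tested members was 0.18, 0.17 and -1.09 at the successive steps, where that of all genes was 0.037, -0.086 and -0.122. Scaling by library totals in place of the size factors moved the median of all genes to 0.095, -0.341 and -0.349, so that small differences are best read relative to these shifts. Over the 48 genes, the summed normalized count was 11739 to 12702 at P1, then 15850 to 17611 at P7, next 22432 to 27924 at P14 and last 16917 to 17377 at P28, with no overlap between successive time points.

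Several of these counts rested on single libraries, which were left out 1 at a time here and below for each channel gene and each named partner gene. The count of members lower from P1 to P7 was 2 without P1 replicate 1, P1 replicate 2 or P7 replicate 2 and 7 without P28 replicate 3, and at the next step the count of lower members was 1 without P7 replicate 1, P7 replicate 3 or P14 replicate 1. From P14 to P28, 9 members were lower without P14 replicate 1. The members higher at that step numbered 0 without P14 replicate 2 or P14 replicate 3 and 1 without P7 replicate 1, P14 replicate 1 or P28 replicate 3. With all libraries, limma called 2 there, edgeR 2 and DESeq2 3, and 4 had an unadjusted p under 0.05. A limma fit of only the 6 libraries of P14 and P28 called 6 members lower and 0 higher, with 3 higher at an unadjusted p under 0.05. The same kind of fit of P1 and P7 called 13 higher and 11 lower.

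**Figure D1:**
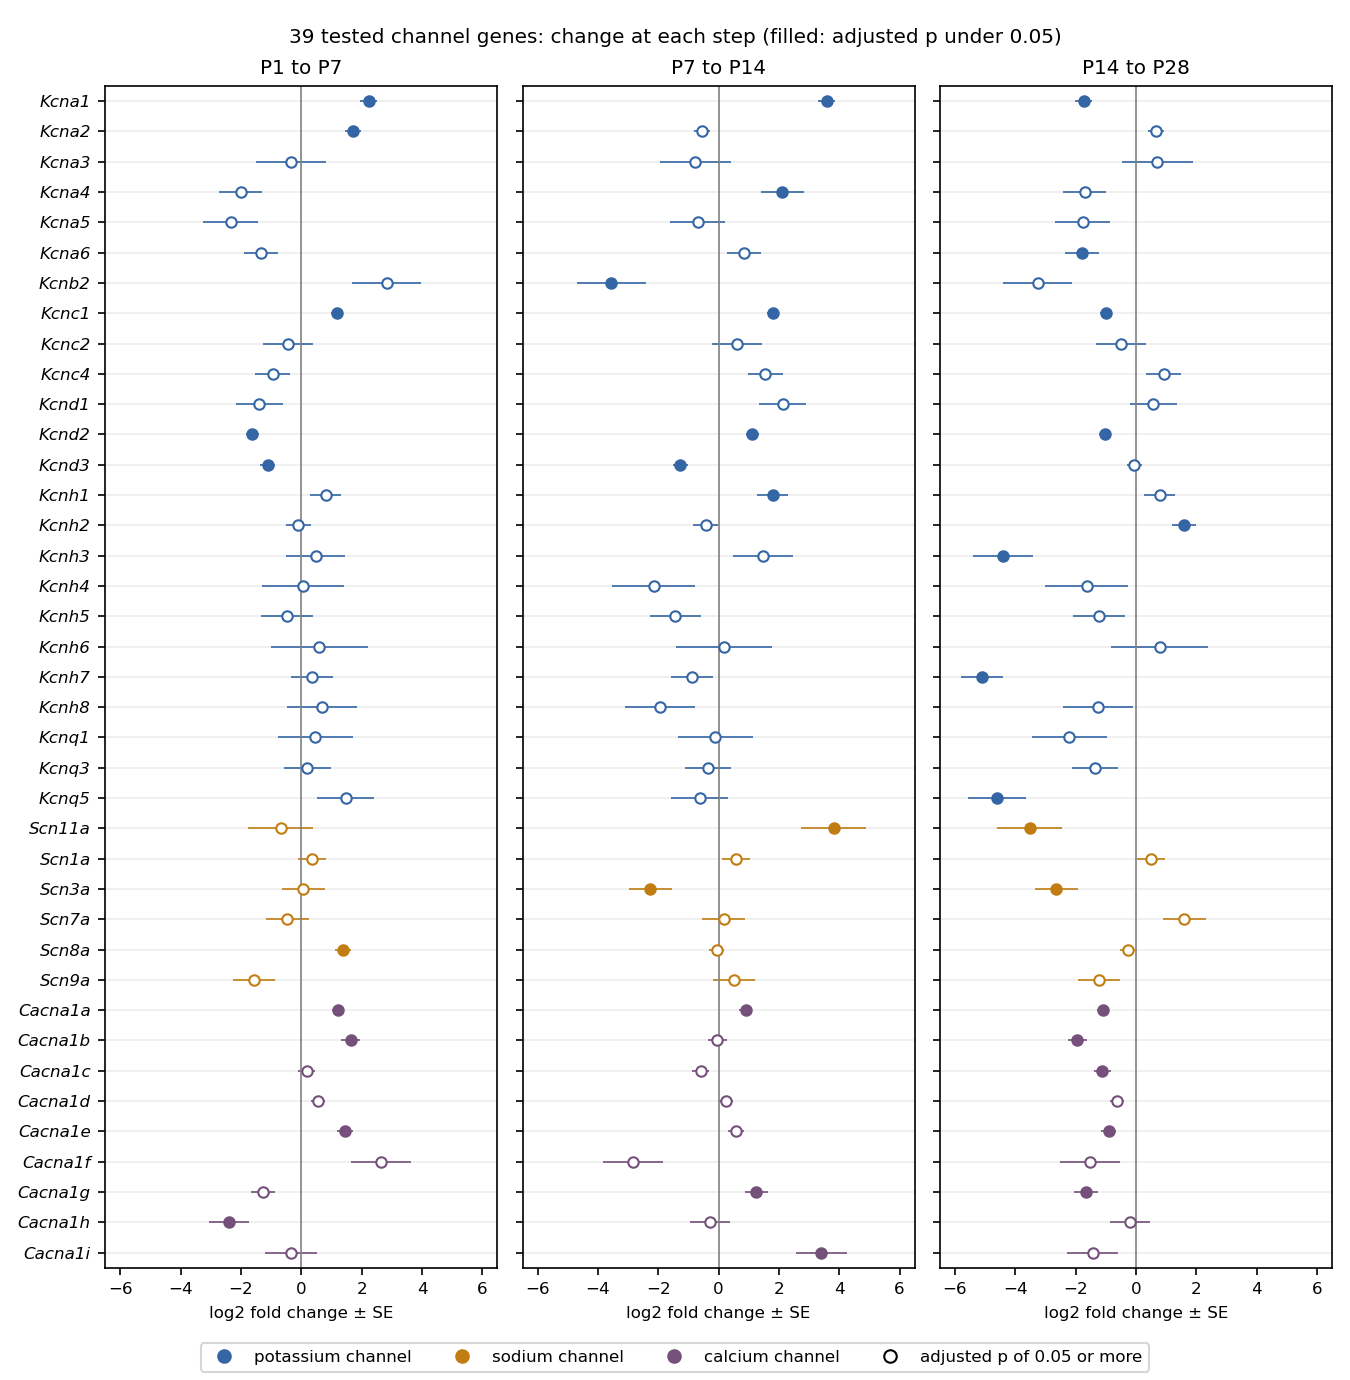
Log2 fold change ± SE of 39 tested channel genes (rows, ordered by family) at the steps P1 to P7, P7 to P14 and P14 to P28, in blue for potassium, orange for sodium and purple for calcium channels. Filled points had an adjusted p under 0.05; of the genes shown, 14 filled points lie left of 0 in the right panel and 1 lies right of it.

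The families did not share 1 course. Per kilobase (kb) of exon and summed over its members, the Kcna (Kv1) family had a normalized count of 161 to 206 at P1, then 287 to 452 at P7, next 892 to 1239 at P14 and last 502 to 665 at P28. The Kcnc (Kv3) family followed the same order of time points, with 74.5 to 103, 153 to 197, 607 to 655 and 317 to 408 per kb. In both families the libraries of the 4 time points did not overlap. The summed normalized count of 10 general neuron markers was also highest at P14 (24709 to 43698) and next highest at P28 (14941 to 19106), and its part in these courses was not tested. The rank of P28 in that sum came from Snap25: the other 9 markers summed to 8843 to 10307 at P7 and 4201 to 4884 at P28. The Kcnd (Kv4) family was highest at P1, with 429 to 494 per kb, and stood at 172 to 186 at P7, next 266 to 296 at P14 and last 140 to 281 at P28. The calcium channel genes summed to 266 to 285 per kb at P1, then 347 to 447 at P7, next 495 to 632 at P14 and last 224 to 295 at P28, so that P28 was back in the range of P1. The sums of the other families overlapped between most time points: the Scn family ranged from 76.8 to 169, the Kcnq (Kv7) family from 42.4 to 96.2, and the Kcnh family from 63.3 to 111 in all libraries but those of P28, which reached 307. By the time point of the highest mean, 9 tested members were highest at P1, then 10 at P7, next 13 at P14 and last 11 at P28. The time point of the lowest mean was P28 for 19 members and P14 for 2.

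**Figure D2:**
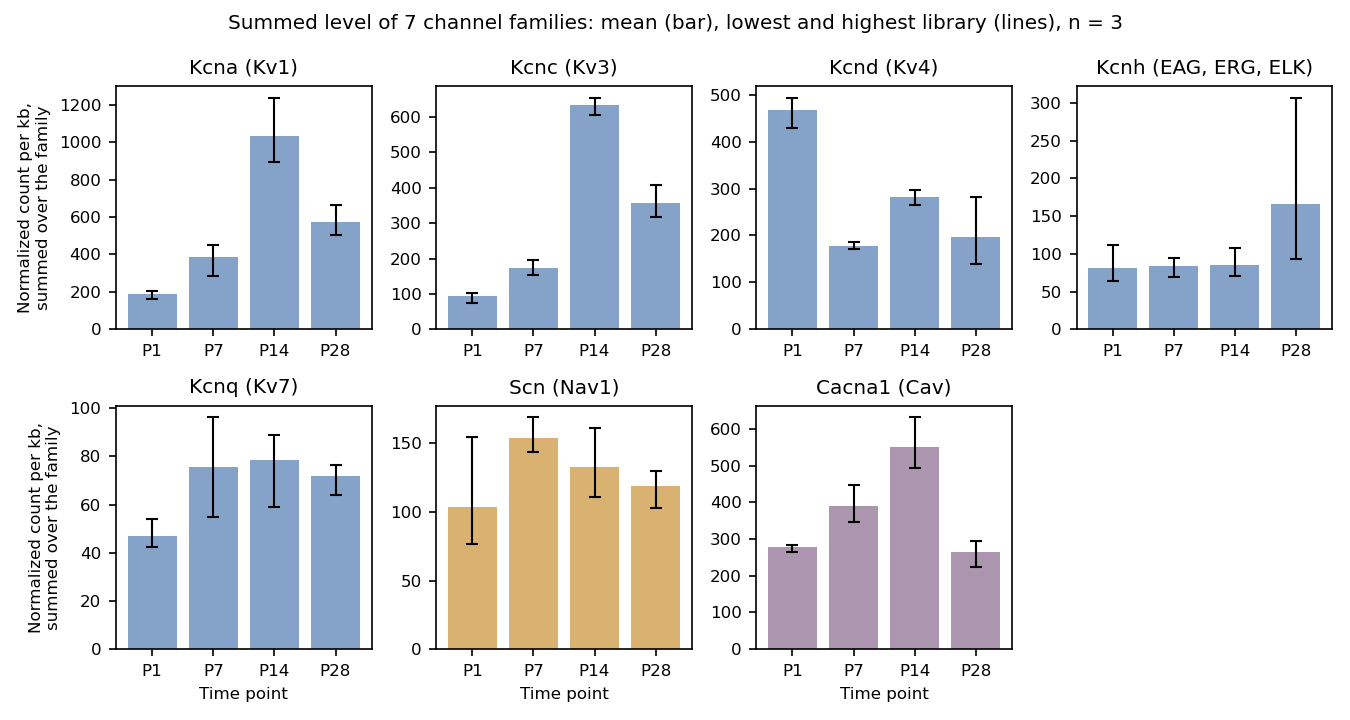
Normalized count per kb of exon, summed over the members of 7 channel families, at P1, P7, P14 and P28. Bars give the mean of 3 libraries and lines run from the lowest to the highest library; the Kcna and Kcnc sums are highest at P14 and the Kcnd sum at P1.

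Of the Kv1 genes, Kcna1 and Kcna2 were the ones called higher at P28 than at P1. Both encode delayed-rectifier subunits that sit along axons and beside the nodes of myelinated fibres. Kcna1 (chr6:126640397-126646384, minus strand, mm10) had normalized counts of 43.7, 78.6 and 78.8 at P1, then 249, 415 and 286 at P7, then 3222, 3442 and 4644 at P14 and last 1011, 1087 and 1244 at P28. The 4 time points did not overlap, and P14 was far above the rest. It rose from P1 to P7 (log2 fold change 2.24 ± 0.28, adjusted p = 0.000222) and from P7 to P14 (log2 fold change 3.58 ± 0.28, adjusted p = 1.04e-06) and fell from P14 to P28 (log2 fold change -1.74 ± 0.28, adjusted p = 0.00152). At P28 it was still well above P1 (log2 fold change 4.08 ± 0.28, adjusted p = 9.24e-08). Kcna2 (chr3:107101146-107115005, plus strand) had 818, 1100 and 1012 at P1, then 3982, 1950 and 4192 at P7, then 1644, 2337 and 2679 at P14 and last 3656, 3188 and 3555 at P28. All P7, P14 and P28 libraries were above all P1 libraries, and P7 replicate 2, the shallowest library, was about level with P14. The rise came from P1 to P7 (log2 fold change 1.72 ± 0.26, adjusted p = 0.00109), and the later steps did not pass the test (adjusted p = 0.163 and 0.102).

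Kcna4, the rapidly inactivating A-type member, had normalized counts of 64.0, 50.0 and 87.8 at P1, then 18.3, 13.1 and 15.5 at P7, then 102, 58.2 and 58.6 at P14 and last 17.5, 8.26 and 60.9 at P28. Its P7 libraries were lower than those of P1 and P14, and it was called from P7 to P14 (log2 fold change 2.11 ± 0.71, adjusted p = 0.0484), with an adjusted p of 0.114 for the step before. Kcna6, another delayed rectifier, had 288, 369 and 248 at P1, then 131, 94.2 and 129 at P7, then 305, 252 and 121 at P14 and last 148, 24.8 and 58.1 at P28. P14 and P28 overlapped, and Kcna6 was called lower from P14 to P28 (log2 fold change -1.79 ± 0.56, adjusted p = 0.0445) and from P1 to P28 (log2 fold change -2.29 ± 0.56, adjusted p = 0.00568). An antisense gene on the opposite strand covers 39.6% of the Kcna6 exon length, and whether the counting used strand is not given in the sources used here, so that the reads of this gene are uncertain. Kcna5, known from heart and vessels, fell from 19.7 to 47.9 at P1 to 0 in the 3 libraries of P28 (adjusted p = 0.00105, at least 7.33-fold lower with 3 reads per library as the floor). Kcna3, a channel of lymphocytes and other immune cells, ranged from 1.18 to 160, with both ends at P28, and passed no test. Kcna4 from P7 to P14 was not called with library totals, without the filter on low values, with a pseudocount of 0.1 or with the replicate block (adjusted p = 0.0507 to 0.0723). Kcna6 from P14 to P28 was not called by edgeR, without the filter on low values or in a fit of only P14 and P28 (adjusted p = 0.0573 to 0.238). The Kcna4 call from P7 to P14 was lost without P1 replicates 1, 2 or 3, P7 replicates 1, 2 or 3 or P14 replicates 1, 2 or 3 (adjusted p = 0.0616 to 0.148). For Kcna6, the call from P14 to P28 did not hold without P1 replicates 1, 2 or 3, P7 replicates 1, 2 or 3, P14 replicates 1 or 2 or P28 replicates 2 or 3 (adjusted p = 0.0566 to 0.152). Kcna6 from P1 to P28 had a log2 fold change of -2.93 without P28 replicate 1 and -1.67 without P28 replicate 2, still called. Kcna6 from P14 to P28 had a log2 fold change of -2.43 without P28 replicate 1, still called. Leaving out 1 library added calls for Kcna2 from P14 to P28 without P7 replicate 2 (adjusted p = 0.0334), Kcna2 from P7 to P14 without P7 replicate 2 (adjusted p = 0.00969) and Kcna4 from P1 to P28 without P28 replicate 3 (adjusted p = 0.0109). The same held for Kcna4 from P1 to P7 without P28 replicates 2 or 3 (adjusted p = 0.0364 to 0.0463) and Kcna4 from P14 to P28 without P28 replicate 3 (adjusted p = 0.0208).

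Kcnb2, a delayed rectifier of the Kv2 family (chr1:15287254-15723750, plus strand), had 67.1, 35.0 and 152 at P1, then 519, 455 and 564 at P7, then 71.0, 12.7 and 82.5 at P14 and last 0, 1.18 and 41.9 at P28. P7 was the high point, above every other library. The fall from P7 to P14 was called (log2 fold change -3.56 ± 1.14, adjusted p = 0.0385), as was P28 against P1 (log2 fold change -3.99 ± 1.14, adjusted p = 0.0145), while the step from P1 to P7, with no overlap, was not (log2 fold change 2.83 ± 1.14, adjusted p = 0.171). Kcnb2 from P1 to P28 was not called by DESeq2, by edgeR or in a fit of only P1 and P28 (adjusted p = 0.0716 to 0.102). Kcnb2 from P7 to P14 was not called without the filter on low values or with a pseudocount of 0.1 (adjusted p = 0.053 to 0.142). The Kcnb2 call from P1 to P28 was lost without P1 replicate 3 or P28 replicate 1 (adjusted p = 0.0537 to 0.0666). For Kcnb2, the call from P7 to P14 did not hold without P1 replicate 1, P7 replicates 1, 2 or 3 or P14 replicates 1, 2 or 3 (adjusted p = 0.0524 to 0.167). Kcnb2 from P1 to P28 had a log2 fold change of -5.61 without P28 replicate 3, still called. With 1 library left out, calls were added for Kcnb2 from P1 to P7 without P28 replicate 3 (adjusted p = 0.0266) and Kcnb2 from P14 to P28 without P28 replicate 3 (adjusted p = 0.00296).

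Kcnc1, a Kv3 channel whose fast closing lets neurons fire at high rates, rose at both early steps and fell at the last. Kcnc1 (chr7:46396497-46438704, plus strand) had 281, 320 and 316 at P1, then 623, 690 and 770 at P7, then 2342, 2173 and 2671 at P14 and last 1261, 958 and 1432 at P28. No library of any time point overlapped with another time point. Its changes were log2 fold change 1.18 ± 0.19, adjusted p = 0.00167 from P1 to P7, log2 fold change 1.79 ± 0.19, adjusted p = 1.47e-05 from P7 to P14 and log2 fold change -0.99 ± 0.19, adjusted p = 0.00463 from P14 to P28. At P28 it stood above P1 (log2 fold change 1.97 ± 0.19, adjusted p = 3.11e-06). Kcnc2 and Kcnc4 were low. Kcnc2 ranged from 6.76 to 71.7 and passed no limma test. Kcnc4 ranged from 20.9 to 184 and differed over the 4 time points (adjusted p = 0.0186) but at no single step by limma. Calls made only with 1 library left out were those of Kcnc4 from P1 to P28 without P14 replicate 3 or P28 replicate 3 (adjusted p = 0.0351 to 0.0378) and Kcnc4 from P7 to P14 without P14 replicate 3 (adjusted p = 0.0271).

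**Figure D3:**
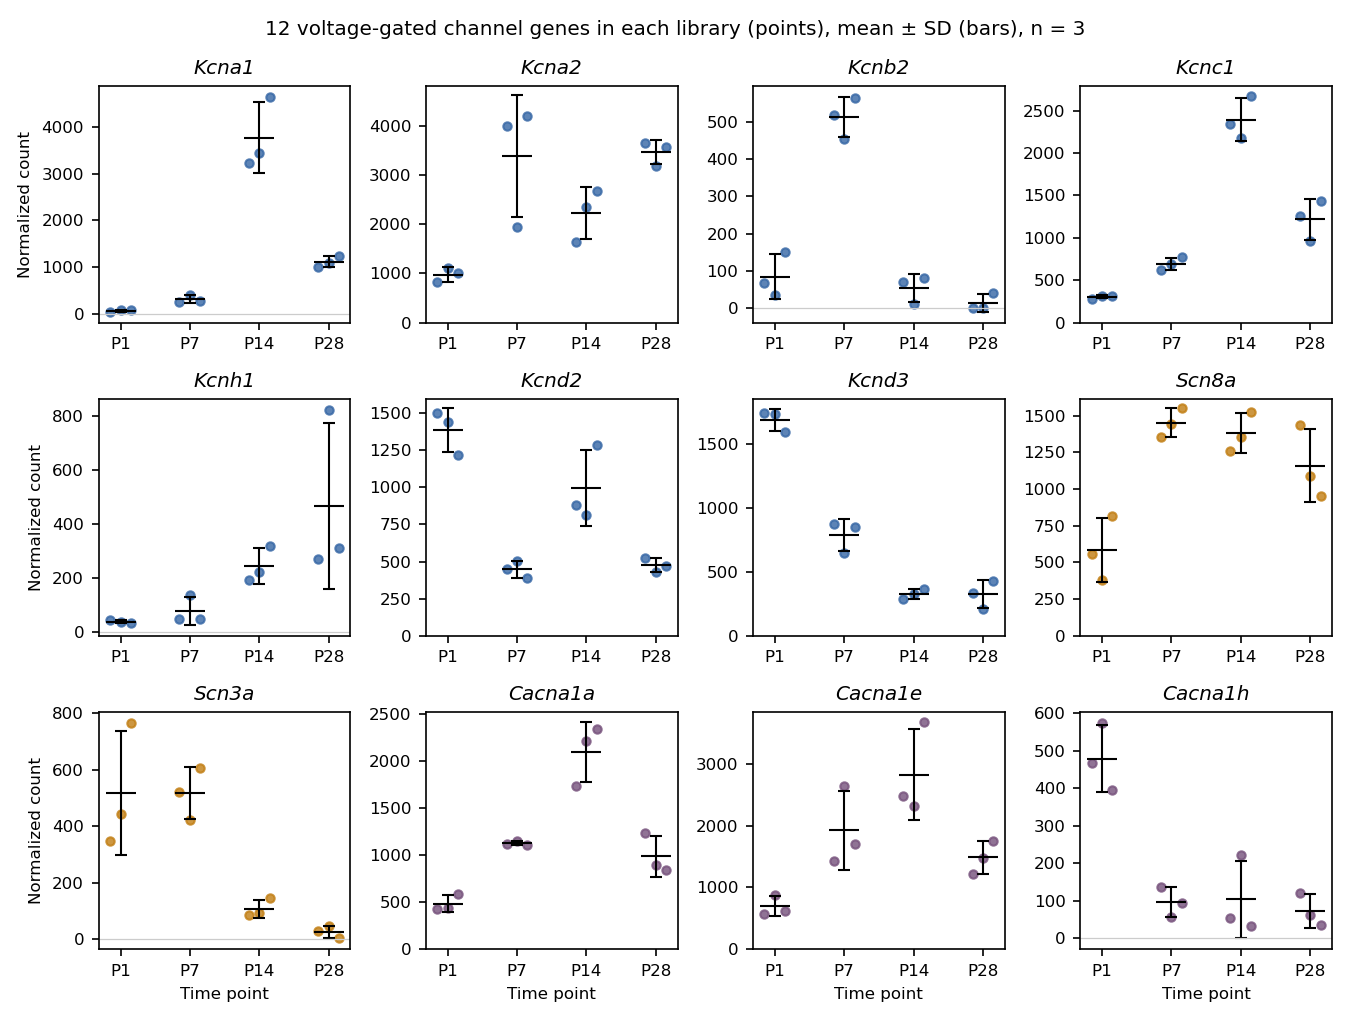
Normalized counts of 12 channel genes in each library (points, blue potassium, orange sodium, purple calcium), with the mean ± SD of 3 libraries per time point. Kcna1, Kcnc1 and Cacna1a peak at P14, Kcnd3 and Scn3a lie low at P14 and P28, and Kcnb2 is highest at P7.

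The Kv4 genes carry the A-type current of cell bodies and dendrites, and the abundant pair was highest at P1. Kcnd2 (chr6:21215503-21729805, plus strand) had 1499, 1441 and 1219 at P1, then 451, 505 and 388 at P7, then 879, 814 and 1287 at P14 and last 526, 432 and 473 at P28. P1 and P14 were the high time points, P7 and P28 the low ones, and successive time points did not overlap. Kcnd2 fell from P1 to P7 (log2 fold change -1.63 ± 0.21, adjusted p = 0.000335), rose from P7 to P14 (log2 fold change 1.12 ± 0.21, adjusted p = 0.00164) and fell again from P14 to P28 (log2 fold change -1.03 ± 0.21, adjusted p = 0.00656). Kcnd3 (chr3:105452330-105674002, plus strand) had 1743, 1737 and 1595 at P1, then 875, 649 and 850 at P7, then 285, 329 and 368 at P14 and last 339, 210 and 433 at P28. Each of the first steps took it lower, and P14 and P28 overlapped. It fell from P1 to P7 (log2 fold change -1.11 ± 0.25, adjusted p = 0.0146) and from P7 to P14 (log2 fold change -1.27 ± 0.25, adjusted p = 0.00242), and from P14 to P28 the log2 fold change was -0.05 ± 0.25. The genes thus parted from P7 to P14, where Kcnd2 rose and Kcnd3 fell. Kcnd1 was called at no step by limma. It lay between 39.8 and 137 at P1 and P7 and then spread widely, from 40.2 to 422 at P14 and from 159 to 760 at P28. From P7 to P14, edgeR and DESeq2 each called 2 of the 3 Kcnd genes higher and 1 lower, so that both called Kcnd1 higher there. Kcnd2 from P14 to P28 was not called in a fit of only P14 and P28 (adjusted p = 0.056). The Kcnd3 call from P1 to P7 was lost without P1 replicates 1 or 2 or P7 replicate 2 (adjusted p = 0.059 to 0.0812). Leaving out 1 library added a call for Kcnd1 from P7 to P14 without P14 replicate 3 or P28 replicate 3 (adjusted p = 0.00239 to 0.0386).

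The promoter windows of the genes that parted, Kcnd2 and Kcnd3, and of Kcnc1, which rose at both early steps, are shown to set genes of different courses side by side. RefSeq promoter entries (GRCm38.p6) were matched for 33 of the 48 members. Each line gives the 250 bases before the start in the first promoter entry of the gene, 5′ to 3′ on the gene's strand. The windows are Kcnc1 at chr7:46396218-46396467, Kcnd2 at chr6:21215096-21215345 and Kcnd3 at chr3:105451640-105451889, all on the plus strand. These windows end upstream of the gene starts given above, which come from another annotation. Other promoter entries of these genes, where present, are not shown. Capitals mark GGGCGG or its reverse complement CCGCCC, the core of the GC box.
Kcnc1: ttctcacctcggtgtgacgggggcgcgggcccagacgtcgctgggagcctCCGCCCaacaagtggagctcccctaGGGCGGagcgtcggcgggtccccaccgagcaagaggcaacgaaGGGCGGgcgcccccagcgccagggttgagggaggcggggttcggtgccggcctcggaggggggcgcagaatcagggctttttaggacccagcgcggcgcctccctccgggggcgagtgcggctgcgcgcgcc
Kcnd2: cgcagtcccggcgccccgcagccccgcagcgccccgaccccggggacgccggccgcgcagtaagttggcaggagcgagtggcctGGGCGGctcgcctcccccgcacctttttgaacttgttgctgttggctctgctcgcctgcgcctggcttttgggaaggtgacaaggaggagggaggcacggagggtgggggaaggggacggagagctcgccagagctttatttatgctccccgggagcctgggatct
Kcnd3: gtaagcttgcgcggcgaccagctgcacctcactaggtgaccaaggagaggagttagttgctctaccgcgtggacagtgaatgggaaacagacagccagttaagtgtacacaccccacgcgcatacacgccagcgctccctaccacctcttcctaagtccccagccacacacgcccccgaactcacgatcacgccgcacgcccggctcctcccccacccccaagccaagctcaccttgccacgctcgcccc
The Kcnc1 window held 3 such matches, that of Kcnd2 held 1 and that of Kcnd3 none, and CG dinucleotides numbered 30, 22 and 18. TATAAA, searched on both strands, was in none of them. Over all 32851 promoter entries, 32.7% held GGGCGG on either strand and 12.4% held TATAAA in the same 250 bases. Of the 41 entries of the 33 matched channel genes, 18 (43.9%) and 1 (2.44%) did. The median number of CG dinucleotides was 9.0 in the channel entries and 6.0 in all entries. These matches describe the letters of the windows only.

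Of the 8 Kcnh genes (the EAG, ERG and ELK channels), Kcnh1 and Kcnh2 rose at a later step, Kcnh3 and Kcnh7 fell to or near 0 at P28, and Kcnh6 and Kcnh8 passed no limma test. No Kcnh gene was called from P1 to P7 by limma, edgeR or DESeq2, and none had an unadjusted p under 0.05 there. Kcnh1, the EAG channel, had 43.1, 38.6 and 34.1 at P1, then 47.0, 137 and 48.8 at P7, then 191, 223 and 319 at P14 and last 269, 821 and 311 at P28. Every P14 and P28 library was above every P1 and P7 library, with a called rise from P7 to P14 (log2 fold change 1.79 ± 0.52, adjusted p = 0.024) and over the whole series (log2 fold change 3.38 ± 0.52, adjusted p = 0.000199). Kcnh2, the ERG channel that repolarises heart muscle, had 113, 121 and 220 at P1, then 131, 102 and 182 at P7, then 111, 93.1 and 95.6 at P14 and last 279, 459 and 215 at P28. Its P14 libraries lay together and below those of P28, and it rose from P14 to P28 (log2 fold change 1.59 ± 0.41, adjusted p = 0.0192). Kcnh7, a second ERG gene of the nervous system, had 67.1, 60.7 and 72.7 at P1, then 70.9, 128 and 67.4 at P7, then 24.4, 64.5 and 59.7 at P14 and last 1.46, 0 and 0 at P28. The earlier time points held between 24.4 and 128, and at P28 it was close to the detection limit (log2 fold change -5.11 ± 0.69, adjusted p = 0.000554). Kcnh3, an ELK channel, had 1.85, 11.4 and 3.79 at P1, then 0.796, 7.85 and 27.1 at P7, then 18.0, 16.9 and 27.1 at P14 and last 0 in each library at P28. P14 lay above P1 and overlapped with P7, while P28 held no read, at least 5.18-fold lower than P14 with 3 reads per library as the floor (adjusted p = 0.00962). Kcnh4, Kcnh5, Kcnh6 and Kcnh8 were called at no step. Kcnh4 and Kcnh5 were lower at P28 than at P1 (adjusted p = 0.0458 and 0.0108), Kcnh8 ranged from 0 to 71.2, and Kcnh6 stayed under 50 in all libraries but P28 replicate 2, which held 323. That library also held the highest Kcnh1 value. From P1 to P28, limma and edgeR each called 1 Kcnh gene higher and DESeq2 called 3. Those 3 were Kcnh1, Kcnh2 and Kcnh6, the Kcnh genes with a higher mean at P28 than at P1. Kcnh2 from P14 to P28 was not called in a fit of only P14 and P28 (adjusted p = 0.086). Kcnh4 from P1 to P28 was not called by DESeq2, by edgeR, without the filter on low values, in a fit of only P1 and P28 or with a pseudocount of 10 (adjusted p = 0.0668 to 0.18). The Kcnh1 call from P7 to P14 was lost without P7 replicates 1 or 3 or P14 replicates 2 or 3 (adjusted p = 0.0601 to 0.107). For Kcnh2, the call from P14 to P28 did not hold without P14 replicates 2 or 3 (adjusted p = 0.0516 to 0.056). The Kcnh4 call from P1 to P28 was no longer made without P1 replicates 1, 2 or 3, P7 replicates 1, 2 or 3, P14 replicate 1 or P28 replicates 1 or 2 (adjusted p = 0.0544 to 0.161). Kcnh4 from P1 to P28 had a log2 fold change of -5.19 without P28 replicate 3, still called. With 1 library left out, calls were added for Kcnh2 from P1 to P28 without P1 replicate 3 or P28 replicate 3 (adjusted p = 0.0266 to 0.0391), Kcnh3 from P1 to P28 without P7 replicate 1 (adjusted p = 0.0446) and Kcnh5 from P7 to P14 without P14 replicate 3 (adjusted p = 0.048). The same held for Kcnh8 from P1 to P28 without P28 replicate 2 (adjusted p = 0.0142).

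The Kv7 (Kcnq) genes include those whose heteromers carry the M-current that restrains repetitive firing. Kcnq5 had 59.7, 62.2 and 78.0 at P1, then 119, 274 and 193 at P7, then 75.2, 120 and 186 at P14 and last 30.7, 0 and 2.7 at P28. It was highest at P7 and P14 and fell from P14 to P28 (log2 fold change -4.61 ± 0.95, adjusted p = 0.00656), with P28 spread from 0 to 30.7. Kcnq1, the heart and epithelial member, ranged from 0 to 36.9 and Kcnq3, an M-current subunit, from 12.2 to 191, and neither passed a test. Kcnq5 from P1 to P28 was not called in a fit of only P1 and P28 (adjusted p = 0.0562). Kcnq5 from P14 to P28 was not called in a fit of only P14 and P28 (adjusted p = 0.098). Kcnq5 from P1 to P28 had a log2 fold change of -5.12 without P28 replicate 1 and -2.63 without P28 replicate 2, still called. Kcnq5 from P14 to P28 had a log2 fold change of -5.96 without P28 replicate 1 and -3.47 without P28 replicate 2, still called. Calls made only with 1 library left out were those of Kcnq1 from P14 to P28 without P14 replicate 1 (adjusted p = 0.0426), Kcnq3 from P1 to P28 without P28 replicate 1 (adjusted p = 0.0178) and Kcnq3 from P14 to P28 without P28 replicate 1 (adjusted p = 0.0442).

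Of the 9 sodium channel genes 6 were tested, and 3 of these (50.0%) differed over the 4 time points, near the 43.8% of all tested genes. Scn8a, the channel of axon initial segments and mature nodes (chr15:100869858-101045938, plus strand), led the family per kb and had 556, 382 and 819 at P1, then 1358, 1444 and 1553 at P7, then 1261, 1355 and 1528 at P14 and last 1439, 1090 and 952 at P28. P1 was below all later libraries, which overlapped with each other, and the rise from P1 to P7 was called (log2 fold change 1.38 ± 0.25, adjusted p = 0.0031). Scn3a, the channel of embryonic and early postnatal neurons (chr2:65457118-65567627, minus strand), had 346, 441 and 764 at P1, then 520, 423 and 607 at P7, then 86.8, 93.1 and 144 at P14 and last 27.8, 46.0 and 2.7 at P28. P1 and P7 overlapped, and each later time point lay below the one before. It fell from P7 to P14 (log2 fold change -2.27 ± 0.71, adjusted p = 0.0346) and from P14 to P28 (log2 fold change -2.64 ± 0.71, adjusted p = 0.0243), and P28 against P1 gave -4.84 ± 0.71 on the log2 scale. Scn11a, a channel of pain-sensing neurons, had 1.23, 2.86 and 12.1 at P1, then 3.18, 0 and 5.43 at P7, then 31.8, 23.3 and 93.4 at P14 and last 4.38, 0 and 8.11 at P28. It was low except at P14 and was called both higher from P7 to P14 (log2 fold change 3.82 ± 1.08, adjusted p = 0.021) and lower from P14 to P28 (log2 fold change -3.53 ± 1.08, adjusted p = 0.0419).

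Scn1a, the channel of fast-spiking interneurons, ranged from 74.4 to 341 and was higher at P28 than at P1 (adjusted p = 0.0249). Scn9a ranged from 6.76 to 114 and was lower at P28 than at P1 (adjusted p = 0.0187). Scn7a, a glial sodium sensor, ranged from 14.4 to 179 and passed no limma test. From P14 to P28, DESeq2 called 1 sodium channel gene higher and limma 0. Scn2a1, which the naming rule left out, would have been among the strongest changes: it had 189, 266 and 419 at P1, then 307, 353 and 371 at P7, then 1577, 2382 and 2454 at P14 and last 1112, 924 and 564 at P28, with a rise from P7 to P14 (log2 fold change 2.61 ± 0.31, adjusted p = 3.79e-05) and a fall from P14 to P28 (log2 fold change -1.33 ± 0.31, adjusted p = 0.0124, lost without P14 replicate 3 at an adjusted p of 0.0567). Scn11a from P14 to P28 was not called by edgeR, without the filter on low values, in a fit of only P14 and P28 or with a pseudocount of 0.1 (adjusted p = 0.0557 to 0.127). Scn11a from P7 to P14 was not called by edgeR or with a pseudocount of 0.1 (adjusted p = 0.0505 to 0.0773). Scn1a from P1 to P28 was not called by edgeR, with library totals or in a fit of only P1 and P28 (adjusted p = 0.0511 to 0.0943). Scn3a from P14 to P28 was not called in a fit of only P14 and P28 (adjusted p = 0.222). Scn3a from P7 to P14 was not called with a pseudocount of 0.1 (adjusted p = 0.0575). Scn8a from P1 to P28 was not called with library totals (adjusted p = 0.0766). Scn9a from P1 to P28 was not called in a fit of only P1 and P28 (adjusted p = 0.0665). The Scn11a call from P14 to P28 was lost without P1 replicates 1 or 2, P7 replicates 1 or 3, P14 replicates 1, 2 or 3 or P28 replicate 2 (adjusted p = 0.0515 to 0.145). For Scn11a, the call from P7 to P14 did not hold without P7 replicate 2 or P14 replicate 3 (adjusted p = 0.0827 to 0.105). The Scn1a call from P1 to P28 was no longer made without P1 replicates 1 or 2 (adjusted p = 0.092 to 0.109). For Scn3a, the call from P14 to P28 was lost without P14 replicates 1, 2 or 3 (adjusted p = 0.0543 to 0.0912). The Scn3a call from P7 to P14 did not hold without P7 replicates 1, 2 or 3 or P14 replicates 1, 2 or 3 (adjusted p = 0.0556 to 0.115). For Scn9a, the call from P1 to P28 was no longer made without P1 replicate 3 (adjusted p = 0.0821). Scn11a from P14 to P28 had a log2 fold change of -4.18 without P28 replicate 3, still called. Scn3a from P1 to P28 had a log2 fold change of -5.57 without P28 replicate 2 and -3.74 without P28 replicate 3, still called. Scn3a from P14 to P28 had a log2 fold change of -3.36 without P28 replicate 2 and -1.53 without P28 replicate 3, still called.

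All 9 calcium channel genes differed over the 4 time points, where 43.8% of all tested genes did, and 5 of them (55.6%) fell from P14 to P28, where 8.76% of all genes did. None rose at that last step by limma, edgeR or DESeq2, nor at an unadjusted p under 0.05. Cacna1a, the P/Q-type channel of presynaptic terminals and Purkinje cells (chr8:84388440-84640246, plus strand), led the family per kb and had 429, 437 and 584 at P1, then 1122, 1145 and 1105 at P7, then 1736, 2213 and 2341 at P14 and last 1235, 893 and 836 at P28. P7 and P28 were close to each other, with P1 below and P14 above them. It rose from P1 to P7 (log2 fold change 1.23 ± 0.20, adjusted p = 0.00178) and from P7 to P14 (log2 fold change 0.89 ± 0.20, adjusted p = 0.00564) and fell from P14 to P28 (log2 fold change -1.09 ± 0.20, adjusted p = 0.00359). Cacna1b, the N-type channel of presynaptic terminals, had 172, 157 and 266 at P1, then 455, 737 and 637 at P7, then 585, 408 and 831 at P14 and last 114, 175 and 173 at P28. P7 and P14 overlapped and lay above P1 and P28, with a rise from P1 to P7 (log2 fold change 1.63 ± 0.33, adjusted p = 0.00712) and a fall from P14 to P28 (log2 fold change -1.94 ± 0.33, adjusted p = 0.00232). Cacna1e, the R-type channel, had 576, 883 and 624 at P1, then 1423, 2641 and 1707 at P7, then 2485, 2321 and 3679 at P14 and last 1222, 1480 and 1759 at P28. It rose from P1 to P7 (log2 fold change 1.44 ± 0.26, adjusted p = 0.00303) and fell from P14 to P28 (log2 fold change -0.91 ± 0.26, adjusted p = 0.0293), where it remained above P1 (log2 fold change 1.11 ± 0.26, adjusted p = 0.00422).

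Cacna1c, an L-type channel that links depolarisation to gene expression, had 885, 588 and 887 at P1, then 806, 1109 and 759 at P7, then 603, 559 and 574 at P14 and last 339, 330 and 168 at P28. P1 and P7 overlapped, P28 was the lowest, and the fall from P14 to P28 was called (log2 fold change -1.12 ± 0.28, adjusted p = 0.0182). The low-threshold T-type genes had a course each. Cacna1g had 545, 497 and 368 at P1, then 161, 262 and 164 at P7, then 629, 307 and 484 at P14 and last 142, 239 and 86.5 at P28, high at P1 and P14 and low at P7 and P28. It rose from P7 to P14 (log2 fold change 1.25 ± 0.39, adjusted p = 0.0343) and fell from P14 to P28 (log2 fold change -1.66 ± 0.39, adjusted p = 0.013). Cacna1h had 468, 574 and 395 at P1, then 137, 56.3 and 93.0 at P7, then 54.0, 223 and 32.6 at P14 and last 121, 61.3 and 33.8 at P28. P1 lay above every later library and the fall from P1 to P7 was called (log2 fold change -2.39 ± 0.66, adjusted p = 0.0389), with no called change after it. Cacna1i had 9.84, 21.4 and 15.9 at P1, then 7.17, 24.9 and 8.53 at P7, then 139, 68.8 and 248 at P14 and last 32.2, 173 and 20.3 at P28, with P14 above P1 and P7 and a called rise from P7 to P14 (log2 fold change 3.41 ± 0.85, adjusted p = 0.00989). The remaining L-type genes were Cacna1d, which ranged from 527 to 1334 and was called at no step, and Cacna1f, the channel of photoreceptors, which lay under 30 throughout and had no read at P28. Cacna1c from P14 to P28 was not called in a fit of only P14 and P28 (adjusted p = 0.108). Cacna1e from P14 to P28 was not called in a fit of only P14 and P28 (adjusted p = 0.0665). Cacna1g from P14 to P28 was not called in a fit of only P14 and P28 (adjusted p = 0.097). Cacna1g from P7 to P14 was not called with library totals (adjusted p = 0.0881). The Cacna1c call from P14 to P28 was lost without P14 replicates 1 or 3 (adjusted p = 0.0546 to 0.0573). For Cacna1e, the call from P14 to P28 did not hold without P14 replicates 1 or 3 or P28 replicate 1 (adjusted p = 0.0557 to 0.129). The Cacna1g call from P14 to P28 was no longer made without P14 replicate 1 (adjusted p = 0.0603). For Cacna1g, the call from P7 to P14 was lost without P7 replicates 1 or 3 or P14 replicates 1 or 3 (adjusted p = 0.0936 to 0.141). The Cacna1h call from P1 to P7 did not hold without P1 replicates 1, 2 or 3, P7 replicates 1, 2 or 3 or P14 replicate 1 (adjusted p = 0.0511 to 0.165). Leaving out 1 library added calls for Cacna1d from P14 to P28 without P28 replicate 2 (adjusted p = 0.0327), Cacna1e from P7 to P14 without P7 replicate 2 (adjusted p = 0.0412) and Cacna1f from P7 to P14 without P14 replicate 2 (adjusted p = 0.015). The same held for Cacna1g from P1 to P7 without P28 replicates 2 or 3 (adjusted p = 0.0248 to 0.0289).

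Kcna1, Kcnc1 and Cacna1a were called higher, higher and lower at the successive steps. In all, 26 members were called in at least 1 step and 17 in none. The matching share of all tested genes was not counted, so that no excess can be read from this number. Because the libraries hold bulk RNA of sorted cells, a lower value can stand for fewer cells of a type or for less RNA per cell, and the 2 cannot be told apart here.

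The partner proteins of these channels were counted from lists set by protein function. The counts below, over few genes each, stand beside the shares of all tested genes called higher and lower, which were 3.47% and 4.24% from P1 to P7, 10.8% and 10.0% from P7 to P14 and 5.68% and 8.76% from P14 to P28. Among the Kv accessory subunits, 12 of 14 were tested: 1 rose (8.33%) and 2 fell (16.7%) from P1 to P7, 4 rose (33.3%) from P7 to P14, and 2 rose and 2 fell (16.7% each) from P14 to P28, where edgeR called 1 and 1. The most abundant was Kcnip3, a calcium-binding partner of Kv4 channels, with 3529 to 4818 at P1, then 2077 to 3056 at P7, next 6925 to 9269 at P14 and last 9492 to 14599 at P28 (log2 fold changes -0.63, 1.61 and 0.64, adjusted p = 0.0735, 5.13e-05 and 0.0459). Dpp6, which speeds Kv4 gating, went from 1897 to 2770 at P1 to 713 to 900 at P7 (log2 fold change -1.49 ± 0.25, adjusted p = 0.00221), and held 985 to 1692 at P14 and last 591 to 1113 at P28. Dpp6, Kcnd2 and Kcnd3 were thus all called lower from P1 to P7. Kcnip3 from P14 to P28 was not called with TMM scaling, by edgeR, with library totals, without the filter on low values, in a fit of only P14 and P28, with a pseudocount of 0.1 or with the replicate block (adjusted p = 0.05 to 0.16). The Kcnip3 call from P14 to P28 was lost without P1 replicates 1 or 3, P7 replicates 1 or 3, P14 replicates 1, 2 or 3 or P28 replicates 2 or 3 (adjusted p = 0.0519 to 0.157). Calls made only with 1 library left out were those of Dpp6 from P14 to P28 without P14 replicate 1 or P28 replicate 2 (adjusted p = 0.0186 to 0.0459), Dpp6 from P7 to P14 without P14 replicate 1 or P28 replicates 2 or 3 (adjusted p = 0.0353 to 0.0387) and Kcnip3 from P1 to P7 without P28 replicate 1 (adjusted p = 0.0458).

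The silent Kv subunits, which form channels only together with Kv2 proteins, were scarce, with 5 of 10 tested. From P7 to P14 1 of the 5 rose (20.0%), and none was called at the other steps by limma, edgeR or DESeq2, with 2 higher and 1 lower at an unadjusted p under 0.05 from P1 to P7 and 1 lower from P14 to P28. Kcng4 was at 0 to 1.23 at P1, then 4.65 to 7.85 at P7, next 74.1 to 118 at P14 and last 17.5 to 151 at P28, with a called rise from P7 to P14 (log2 fold change 3.76 ± 0.84, adjusted p = 0.00520). Kcns2, second in level, ranged from 0 to 58.9 and was called at no step. Kcng4 from P1 to P28 had a log2 fold change of 6.47 without P28 replicate 1, still called. Leaving out 1 library added calls for Kcng4 from P1 to P7 without P28 replicate 1 (adjusted p = 0.0458), Kcns2 from P1 to P28 without P28 replicate 1 (adjusted p = 0.019) and Kcns2 from P14 to P28 without P28 replicate 1 (adjusted p = 0.0359). Among the Nav beta subunits, which anchor and modulate sodium channels, Scn2b rose and Scn4b fell from P7 to P14. Scn4b was scarce, with a mean of 7.59, and its fall had an adjusted p of 0.0463. Scn4b from P7 to P14 was not called by DESeq2, by edgeR, with a pseudocount of 0.1, with a pseudocount of 10 or with the replicate block (adjusted p = 0.0604 to 0.134). The Scn4b call from P7 to P14 was lost without P1 replicates 1 or 2, P7 replicates 1, 2 or 3 or P14 replicates 2 or 3 (adjusted p = 0.0568 to 0.158). Scn4b from P7 to P14 had a log2 fold change of -3.77 without P14 replicate 1, still called. With 1 library left out, a call was added for Scn4b from P1 to P28 without P28 replicate 3 (adjusted p = 0.0165). Scn3b, the most abundant by mean, held 229 to 404 at P1 and 5.90 to 342 at P28. It was called at no step but lower at P28 than at P1 (log2 fold change -2.90 ± 0.95, adjusted p = 0.0288). Scn2b rose from 12.7 to 62.0 at P7 to 119 to 366 at P14 (log2 fold change 3.30 ± 0.66, adjusted p = 0.00252). Scn3b from P1 to P28 was not called by DESeq2, by edgeR or in a fit of only P1 and P28 (adjusted p = 0.121 to 0.284). The Scn3b call from P1 to P28 was lost without P1 replicates 1, 2 or 3 or P28 replicates 1 or 2 (adjusted p = 0.0514 to 0.104). Scn2b from P7 to P14 had a log2 fold change of 3.95 without P7 replicate 3, still called. Scn3b from P1 to P28 had a log2 fold change of -4.45 without P28 replicate 3, still called. The call made only with 1 library left out was that of Scn3b from P14 to P28 without P28 replicate 3 (adjusted p = 0.00493).

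Of the 8 Cav auxiliary subunits, which carry calcium channels to the membrane, 3 rose (37.5%) and 1 fell (12.5%) from P1 to P7, 2 rose (25.0%) from P7 to P14 and 3 fell (37.5%) from P14 to P28. Cacnb4, the beta subunit that is mutated in the lethargic mouse, was called higher, higher and lower at the successive steps, as Cacna1a was, with 219 to 328 at P1, then 542 to 651 at P7, next 1631 to 3015 at P14 and last 838 to 991 at P28 (log2 fold changes 1.20, 1.84 and -1.23, adjusted p = 0.00677, 9.51e-05 and 0.00546). Unlike those of Cacna1a, its P28 libraries all lay above its P7 libraries. Cacna2d2, the partner found in Purkinje cells, fell from P1 to P7 (log2 fold change -1.02, adjusted p = 0.0274) and rose from P7 to P14 (log2 fold change 0.81, adjusted p = 0.0408). Cacna2d2 from P7 to P14 was not called with library totals (adjusted p = 0.138). The Cacna2d2 call from P1 to P7 was lost without P1 replicates 1, 2 or 3 or P7 replicates 1, 2 or 3 (adjusted p = 0.0516 to 0.134). For Cacna2d2, the call from P7 to P14 did not hold without P1 replicates 1 or 3, P7 replicates 1, 2 or 3 or P14 replicates 1, 2 or 3 (adjusted p = 0.0509 to 0.163).

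Of 9 genes of calcium-activated potassium channels 8 were tested, with 1 lower in the first step, 1 higher and 1 lower in the second, and 1 higher in the last (12.5% each). The gene lower in the second step was Kcnmb2, and edgeR called 0 lower there, while DESeq2 called 1 and 1 had an unadjusted p under 0.05. In the last step limma called 0 lower, edgeR 1 and DESeq2 2, and 2 lower genes had an unadjusted p under 0.05 by limma. Kcnn3 fell from 1280 to 1953 at P1 to 380 to 826 at P7 (log2 fold change -1.42, adjusted p = 0.0220), while Kcnn2, of the same SK group, rose from 205 to 356 at P7 to 563 to 696 at P14 and last 1111 to 1730 at P28 (log2 fold changes 1.13 and 1.24, adjusted p = 0.00517 and 0.00632). The Kcnn3 call from P1 to P7 was lost without P1 replicates 2 or 3 or P7 replicates 2 or 3 (adjusted p = 0.0587 to 0.116). The 4 HCN pacemaker channel genes had 1 call (25.0%) at each step: Hcn2 rose from 19.9 to 28.8 at P7 to 307 to 497 at P14 (log2 fold change 4.12, adjusted p = 0.000110), and Hcn3, the most abundant, was called at no step but was lower at P28 than at P1 (log2 fold change -1.79 ± 0.51, adjusted p = 0.0142). Hcn3 from P1 to P28 was not called in a fit of only P1 and P28 (adjusted p = 0.0635). The Hcn3 call from P1 to P28 was lost without P1 replicate 3 (adjusted p = 0.0849). Among the 12 axonal channel anchors, which hold sodium and potassium channels at initial segments and nodes, 5 rose (41.7%) from P1 to P7, 7 rose (58.3%) from P7 to P14, and 2 rose and 2 fell (16.7% each) from P14 to P28. Ank2 rose from 2319 to 2896 at P7 to 12516 to 15122 at P14 and last 27184 to 34584 at P28 (log2 fold changes 2.43 and 1.17, adjusted p = 1.79e-07 and 0.000424). Nfasc, which clusters channels at nodes, rose from 507 to 1242 at P1 to 3777 to 4751 at P7 and 10677 to 13901 at P14 (log2 fold changes 2.35 and 1.46, adjusted p = 0.000133 and 0.00149).

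Markers of other cell types moved with these results, and their part in the channel results was not tested. The summed normalized count of 10 astrocyte markers was 58094 to 75220 at P1, then 30294 to 55785 at P7, next 163274 to 203734 at P14 and last 385032 to 444327 at P28, so that the labelled cell type was marked in every library. Not all of these genes followed the sum. From P1 to P7, 5 fell, Aldh1l1 among them (log2 fold change -1.80), and 2 rose, against 4.24% and 3.47% of all genes. From P1 to P28, 9 rose and only Aldh1l1 fell (log2 fold change -0.76), against 14.6% and 20.0% of all genes. The sum of 10 general neuron markers was 2923 to 6995, 10949 to 13078, 24709 to 43698 and 14941 to 19106. Snap25 alone went from 2033 to 2771 at P7 to 15942 to 30596 at P14 and last 10057 to 14905 at P28, while the other 9 summed to 8767 to 13102 at P14, which overlapped with P7. From P14 to P28, 4 of the 10 were called lower and 0 higher by limma, with 0 higher by edgeR, by DESeq2 and at an unadjusted p under 0.05. For 10 granule neuron markers the sum was 1143 to 1448, 2401 to 4672, 14988 to 29390 and 9927 to 12616, with 9 of 10 genes called higher from P7 to P14, where 10.8% of all genes were, and Gabra6 at 0 in the 3 libraries of P1. The 6 granule neuron precursor markers summed to 8930 to 13488, 18559 to 23727, 1726 to 2747 and 926 to 1958, with Atoh1 at 0 in every library of P14 and P28. Oligodendrocyte markers (8 genes) summed to 635 to 1495, 19743 to 31023, 300100 to 358930 and 93579 to 132540, with 8 of 8 called higher from P7 to P14 and 6 lower from P14 to P28, where 8.76% of all genes were.

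GABAergic interneuron markers (7 genes) were highest at P7 in sum, with 4328 to 9926 against 529 to 3314 at P1, then 521 to 597 at P14 and last 314 to 572 at P28. From P7 to P14, 6 of the 7 fell and 1, Pvalb, rose (log2 fold change 3.01), against 10.0% and 10.8% of all genes. The 9 Purkinje cell markers summed to 2146 to 2496, 2346 to 2975, 2820 to 3776 and 2363 to 6048. This sum joined genes of opposite course. From P1 to P28, 4 rose (Pcp2, Rgs8, Itpr1 and Pcp4, log2 fold changes 5.04, 3.11, 1.87 and 1.61), or 44.4% against 14.6% of all genes. Another 3 fell (Foxp2, Slc1a6 and Car8, -3.64, -3.15 and -1.09), or 33.3% against 20.0%. Oligodendrocyte precursor markers (6 genes) gave 7524 to 11352, 4767 to 5354, 8287 to 9735 and 2883 to 5059, high at P1 and P14 as Kcnd2 and Cacna1g were. Its genes differed in this: Pdgfra, the marker of the precursors themselves, fell at every step (means of 3646, 1281, 720 and 353), and Bcas1 rose at both early steps (means of 469, 1179 and 2581). The 6 markers each of endothelial cells, mural cells and microglia summed to 608 to 7508, 963 to 3685 and 449 to 2775. Mural cell markers were highest at P14 (3458 to 3685), against at most 2001 at P1, 2738 at P7 and 2549 at P28. Microglia markers at P14 (1788 to 2775) lay above P1 and P7 and overlapped with P28 (1317 to 1798). Endothelial markers at P14 (4383 to 5774) lay above P1 (608 to 2889) and overlapped with P7 and P28. From P7 to P14, 3 mural cell, 1 endothelial and 1 microglia gene rose (50.0%, 16.7% and 16.7%), against 10.8% of all genes. The sum for choroid plexus epithelium (6 genes) ranged from 1163 to 184095. No marker other than Gabra6 and Atoh1 was at 0 in all libraries of a time point.

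**Figure D4:**
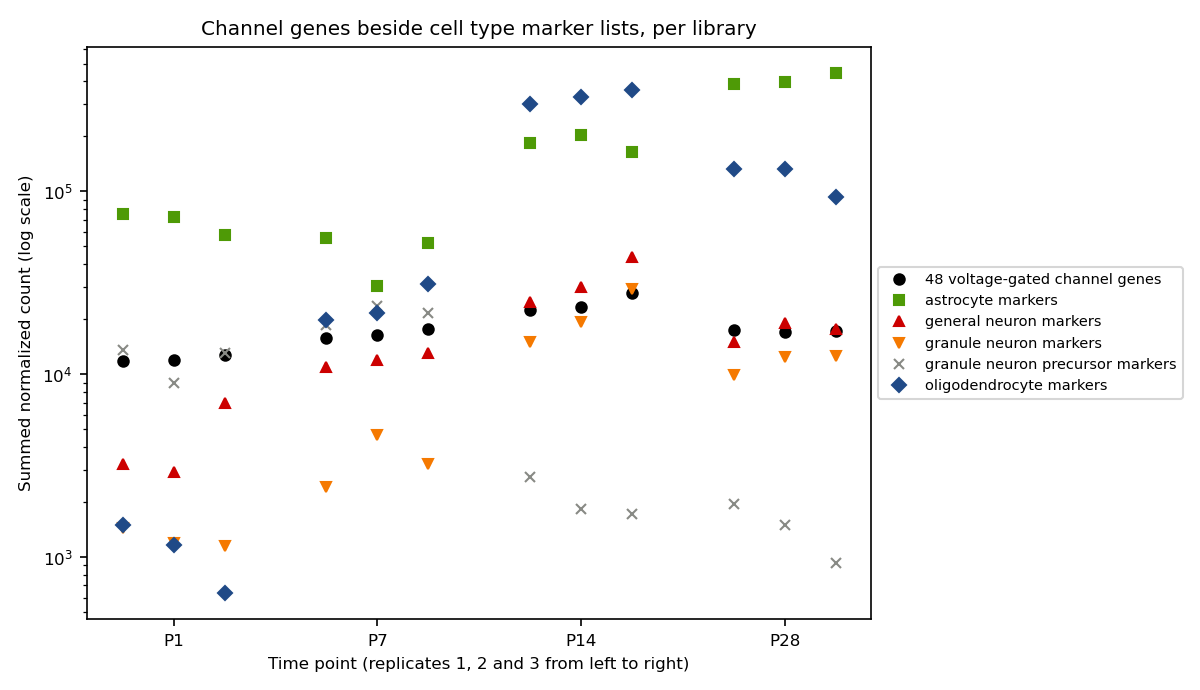
Summed normalized count (log scale) of the 48 channel genes and of 5 cell type marker lists in each of the 12 libraries. The channel sum, the general neuron markers and the granule neuron markers are each highest at P14, while the astrocyte markers are highest at P28.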

How the data were processed

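RNA of GFP+ cells sorted from the cerebellum of Aldh1l1-GFP mice was measured in 12 libraries (P1, P7, P14 and P28, 3 of each), made from poly(A) RNA per the labels. The authors aligned reads to mm10 with STAR and counted them on UCSC transcripts. The submitters' processing notes list STAR 2.5.0a and DESeq2 1.30.1. Strand use in counting is not given in the sources used here. The deposited values are a normalized signal, gene counts divided by 1 size factor per library. Whole reads were recovered for 100.0% of values (tolerance 0.01 reads), with 6399499 to 14733985 reads per library. All 12 column names carry P28, also those of the P1, P7 and P14 libraries; the time points rest on the labels, which link each column to a sample, and 0 columns lacked a sample.

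Where 3 or more libraries reached a value of 10, a gene was tested with limma 3.58.1 under R 4.3.3, on the log2(value + 1) scale and with the mean-expression trend, in 1 fit of all 12 libraries with no covariate, and Benjamini-Hochberg adjustment ran over all 15464 genes tested. The alternatives were edgeR 4.0.16 and DESeq2 1.42.0 on the recovered reads, pseudocounts of 0.1 and 10, other filters and scalings, a fit of only the time points compared, each library left out in turn, the threshold of unadjusted p under 0.05 with a log2 fold change over 0.75, and the replicate number as a block. The sum of neuron markers without Snap25 was added after the values were seen. Tested on simulated data for P7 to P14 over 15464 genes, limma recovered 46 of 100 genes shifted by 1 on the log2 scale and 99 of 100 shifted by 2, and called 7 unchanged genes. The simulation used 1 fixed dispersion for every gene and time point, not taken from these libraries, and shifted no gene of low count. These figures therefore do not measure recovery or false calls in the real libraries. Replicates were compared in 12 pairs and 0 agreed within sampling noise.

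Values in all libraries are given for channel genes called in at least 1 consecutive step with an absolute log2 fold change of at least 1 and for the gene with the highest mean per kb in each family, except for a few genes that are not reported here, and in each list of related genes the 2 tested genes of the highest mean are named. Genes named beyond this rule were chosen after their values were seen. The channel genes, the lists of related genes (Kv accessory, silent Kv, Nav beta and Cav auxiliary subunits, calcium-activated potassium channels, HCN channels and axonal anchors) and the marker lists were chosen with earlier results of these data known. Exon lengths, positions and overlaps are from the mm10 gene annotation.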

Additional observations from a re-analysis of the deposited data

How the results depend on the processing

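Of the 64 called comparisons (steps, and P28 against P1) of the named channel genes, none changed direction in 1458 values under the alternatives. Of these values, 1327 kept the call and 131 lost it, 95 of them with 1 library left out. Many of them could not change direction. The unadjusted threshold, the filters, the replicate block and the fits of only the time points compared keep the log2 fold change of the main fit. Leaving out a library of a time point not compared keeps it too. The 64 values under the unadjusted threshold could not lose the call either. An adjusted p under 0.05 entails an unadjusted p under 0.05, and each called log2 fold change was over 0.75 in size. With 1 library left out, the members that differed over the 4 time points numbered 26 to 33. Those higher and lower numbered 7 to 10 and 2 to 7 from P1 to P7, 9 to 13 and 1 to 3 from P7 to P14, then 0 to 3 and 9 to 15 from P14 to P28, and 9 to 12 and 10 to 15 from P1 to P28. A filter of at least 10 in every library left 25 members to test, of which 21 differed over the 4 time points, 1 was lower from P7 to P14 and 6 were lower from P1 to P28. Fits of only the time points compared, with fewer libraries behind each spread, gave 13 higher and 11 lower from P1 to P7, 6 lower from P14 to P28 and 0 higher there by limma, where 3 had an unadjusted p under 0.05. From P1 to P7, DESeq2 called 7 lower and the unadjusted threshold with a log2 fold change over 0.75 gave 10. From P7 to P14, 1 was lower with a pseudocount of 0.1 and 5 with library totals. From P14 to P28, 1 was higher without a filter and 1 with library totals. The cause of these moves was not tested, apart from the smaller number of genes or libraries named. Of 18 same-numbered pairs of libraries, 1 had a correlation of deviations over 0.1 (range -0.029 to 0.139). Libraries of different numbers were not compared, so that this check cannot decide whether same-numbered libraries were related. With the replicate block 33 members differed over the 4 time points, with 8 higher and 4 lower from P1 to P7, 11 and 3 from P7 to P14, then 2 and 16 from P14 to P28, and 10 and 14 from P1 to P28. The filter on low values left out 5 members, Scn10a, Scn4a, Kcna10 and Kcna7 among them; without it 47 members were tested, and Scn10a, with no read, was the one that could not be. The summed general neuron markers were higher at P28 than at P7 (log2 ratio 0.53) but lower without Snap25 (-1.11), an alternative chosen after seeing the data.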
